A study of Mus musculus with 9 samples.

Results

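The 8 genes described here, Olig3, Gbx2, Lhx9, Otx2, Lmx1a, Tcf7l2, Rspo3 and Mab21l1, are known for regional identity outside the cortex, in the thalamus, the dorsal midline and neighbouring parts of the early brain. They were taken by name and are 8 of 23201 genes in the deposited tables. Each was read through its transcript with the highest mean value over the 9 libraries. The names were selected on earlier results of these data, the RPKM values of homozygous against control cortex. Values of that comparison are therefore given as a description for these genes, with no p-value, and a count of calls among them only describes the choice. Values from homozygous against heterozygous cortex share the homozygous libraries and are treated in the same way.

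The tissue was mouse cerebral cortex at E13.5 (embryonic day), a tissue labelled as neuronal stem cells and neurons, of a mixed C57BL/6, C57BL/6J and CBA background. There were 3 control libraries, 3 libraries heterozygous for an Sfpq knockout and 3 homozygous for it. Sfpq encodes a nuclear RNA-binding protein, and the study asked how its loss affects long neuronal genes. The genotype of the controls beyond the word control, the kind of Sfpq allele and any Cre driver are not stated in the labels. Ribosomal RNA was removed and total RNA was kept. Sfpq was at 184, 202 and 218 RPKM in the controls, at 185, 163 and 169 RPKM in the heterozygotes and at 26.1, 28.6 and 27.6 RPKM in the homozygotes. RPKM is reads per kilobase of transcript per 1000000 reads, so levels of different genes can be compared. From the steps between low values the depth was estimated at 169.5 to 205 reads for each RPKM and kilobase, per library. By the level of Xist alone the libraries came from 2 females and 1 male in control, 3 males in heterozygous, and 1 female and 2 males in homozygous cortex. The labels number the libraries but do not say how embryos were collected, so p-values measure the spread between these libraries.

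During forebrain development the neural tube is divided into regions by signals from organizers. The cortical hem and the roof plate, at the dorsal midline, release Wnt and Bmp ligands. R-spondins strengthen the response to Wnt ligands through Lgr receptors, and Tcf and Lef proteins carry the response to the genes. The thalamus forms behind the cortex in the diencephalon. Its progenitors make Olig3, and its young neurons make Gbx2, Lhx9 and Tcf7l2. The cortex itself is set by factors such as Lhx2, Emx1 and Emx2.

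One library stood apart for genes that bear on these results. Of 21 genes listed for the subpallium, the ventral telencephalon beside the cortex, 15 had their highest value of all 9 libraries in control library 1, which was the highest for 6.77% of all genes above 0. The summed level of this list was 39.7 RPKM in control library 1, 23.3 and 17.6 RPKM in the other controls, 15.5 to 23.0 RPKM in heterozygous and 20.4 to 26.2 RPKM in homozygous cortex. Results that rest on control library 1 are given with and without it.

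Olig3, a basic helix-loop-helix factor of thalamic and other dorsal progenitors outside the cortex, was almost absent from control and heterozygous cortex and present in all homozygous libraries. It was at 0.00822, 0.0047 and 0.0422 RPKM in control, worth about 3, 2 and 15 reads. In heterozygous cortex it was at 0.0137, 0.125 and 0.0534 RPKM, or about 5, 47 and 21 reads. In homozygous cortex it was at 2.01, 2.10 and 1.36 RPKM, or about 705, 769 and 549 reads. The lowest homozygous library was well above the highest of the 6 others. The difference of homozygous from control means was 2.15 on the log2(RPKM + 0.5) scale, and the added 0.5 keeps this value small because the control level is far under 0.5 RPKM. With 0.1 in place of 0.5 it was 4.01. Olig3 lies alone, with no overlapping gene in GENCODE M21.

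Gbx2, a homeodomain factor of young thalamic neurons that is also known from the medial ganglionic eminence, gave the least even picture. It was at 0.551 RPKM in control library 1 but at 0.00685 and 0.0137 RPKM in control libraries 2 and 3, or about 208, 3 and 5 reads. In heterozygous cortex it was at 0.00798, 0.0232 and 0.0569 RPKM, or about 3, 9 and 23 reads. In homozygous cortex it was at 0.756, 1.04 and 0.509 RPKM, or about 274, 392 and 212 reads. The homozygous libraries overlapped with control library 1 and lay above the 5 other libraries. The log2 difference of homozygous from control means was 0.94 with all controls and 1.29 without control library 1. Gbx2 had a mean of 0.329 RPKM over the 9 libraries, under the 0.5 RPKM needed to enter the fit across all genes.

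Other genes were high in control library 1 together with Gbx2, and they were chosen after their values were seen. Lhx8, a factor of ventral telencephalic neurons, was at 6.67 RPKM there and at 0.0686 to 1.497 RPKM in the 8 others. Gbx1, the relative of Gbx2, was at 0.643 RPKM there and at no more than 0.179 RPKM elsewhere. Shh, the ventral midline signal, was at 1.02 RPKM there, at 0.0929 and 0.0653 RPKM in the other controls and at 0.256 to 0.612 RPKM in homozygous cortex. These genes and Gbx2 shared 1 high control library. In homozygous cortex Lhx8 was at 0.964, 0.294 and 0.658 RPKM and Gbx1 at 0.126, 0.0272 and 0.179 RPKM. In the homozygous libraries Shh, like Gbx2, was above control libraries 2 and 3, while Lhx8 and Gbx1 overlapped with them. Unlike Gbx2, Shh overlapped with the heterozygous libraries, which were at 0.0297, 0.158 and 0.258 RPKM. The part of ventral cells in the Gbx2 level was not tested.

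**Figure D1:**
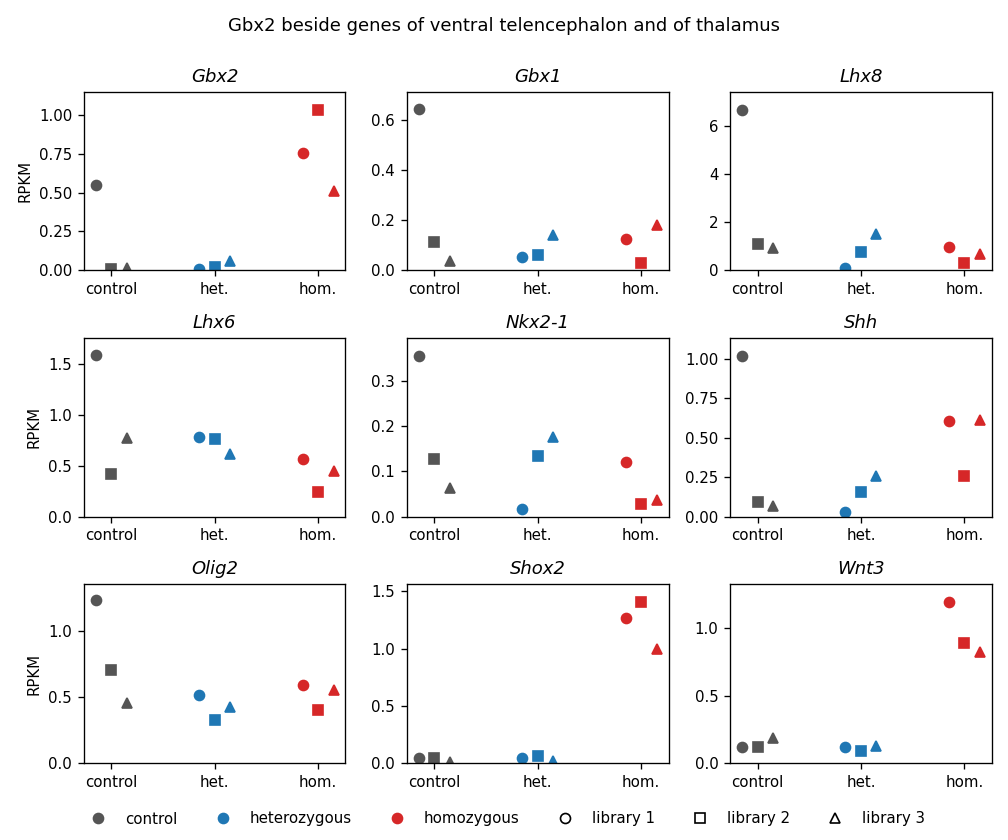
RPKM (linear axis from 0) of Gbx2, of 6 genes of ventral telencephalon or ventral midline (Gbx1, Lhx8, Lhx6, Nkx2-1, Shh, Olig2) and of 2 thalamic genes (Shox2, Wnt3), 1 point per library. Gbx1, Lhx8, Lhx6, Nkx2-1, Shh and Olig2 have their highest point in control library 1, Shox2 and Wnt3 in the homozygous libraries, and Gbx2 is high in both.

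Lhx9, a LIM homeodomain factor of thalamic and other early neurons, was already measurable in control cortex and nearly 2-fold higher in homozygous cortex. It was at 3.61, 3.49 and 3.49 RPKM in the controls, 3.51, 3.82 and 3.53 RPKM in the heterozygotes and 7.44, 6.40 and 7.22 RPKM in the homozygotes. The 6 control and heterozygous libraries lay close together, and the homozygous ones were all above them. Means were 3.53 ± 0.0727 RPKM in the controls and 7.02 ± 0.548 RPKM in the homozygotes (SD, n = 3), a ratio of 1.99. The ratio was lower, 1.60, for NM_001042577, another of 3 transcripts in the tables. The level of NM_001042577 was 67.3% to 73.7% of that of NM_010714, the transcript used, in control libraries, 60.6% to 69.3% in heterozygous and 52.3% to 60.4% in homozygous libraries. These transcripts share exons and therefore reads, so they are not separate measurements.

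Otx2, a homeodomain factor of the early forebrain and midbrain that also marks choroid plexus, was at 6.09, 5.76 and 5.77 RPKM in control cortex. In heterozygous cortex it was at 4.04, 5.16 and 6.73 RPKM, the widest spread of the 3 groups. In homozygous cortex it was at 8.14, 9.28 and 8.47 RPKM, above all 6 others. The ratio of homozygous to control means was 1.47, and it was 1.47 to 1.49 over its 4 transcripts. Otx2os1, a non-coding gene on the opposite strand that overlaps Otx2, was at 0.203 ± 0.0360 RPKM in the controls and 0.108 ± 0.0787 RPKM in the homozygotes (SD, n = 3), so its reads are few beside those of Otx2.

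Lmx1a, a LIM homeodomain factor of the roof plate and cortical hem, did not share this order. It was at 2.96, 3.63 and 4.63 RPKM in the controls, 3.10, 3.87 and 3.71 RPKM in the heterozygotes and 2.76, 3.52 and 2.89 RPKM in the homozygotes. The 3 genotypes overlapped, and the homozygous mean of 3.06 ± 0.403 RPKM was 0.818 times the control mean of 3.74 ± 0.840 RPKM (SD, n = 3). It is the one gene of the 8 whose homozygous mean was under the control mean.

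Tcf7l2, a Tcf and Lef family effector of Wnt signalling that marks the thalamus and neighbouring dorsal diencephalon, was low in all libraries. It was at 0.377, 0.434 and 0.313 RPKM in the controls, 0.308, 0.345 and 0.566 RPKM in the heterozygotes and 0.786, 0.886 and 0.718 RPKM in the homozygotes. The homozygous libraries were above the 6 others, of which heterozygous library 3 was the closest. The ratio of homozygous to control means was 2.12, and it was 2.12 to 2.35 over its 8 transcripts. Tcf7l2 spans 192 kb and Lmx1a 161 kb in GRCm38. The other 6 genes span 2.07 to 82.8 kb.

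Rspo3, a secreted R-spondin of the cortical hem, was the most abundant of the 8 genes. It was at 15.3, 18.0 and 19.8 RPKM in the controls, 17.5, 20.3 and 18.8 RPKM in the heterozygotes and 21.9, 22.5 and 20.7 RPKM in the homozygotes. The lowest homozygous library, at 20.7 RPKM, was close to the highest heterozygous library, at 20.3 RPKM. The ratio of homozygous to control means was 1.23, and 1.15 without control library 1.

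Mab21l1, a Mab-21 family gene needed for eye development and also active in dorsal midbrain, was at 1.70, 1.26 and 1.42 RPKM in control and 1.87, 1.49 and 1.72 RPKM in heterozygous cortex. In homozygous cortex it was at 6.97, 4.90 and 9.07 RPKM, all above the 6 others. The ratio of homozygous to control means was 4.79. Mab21l1 lies on the opposite strand within Nbea, and the use of strand in counting is not given, so reads of the 2 genes may mix. Nbea was at 14.3 ± 1.69 RPKM in the controls and 13.2 ± 1.05 RPKM in the homozygotes (SD, n = 3), a log2 difference of -0.10 that did not pass (limma adjusted p = 0.389).

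**Figure D2:**
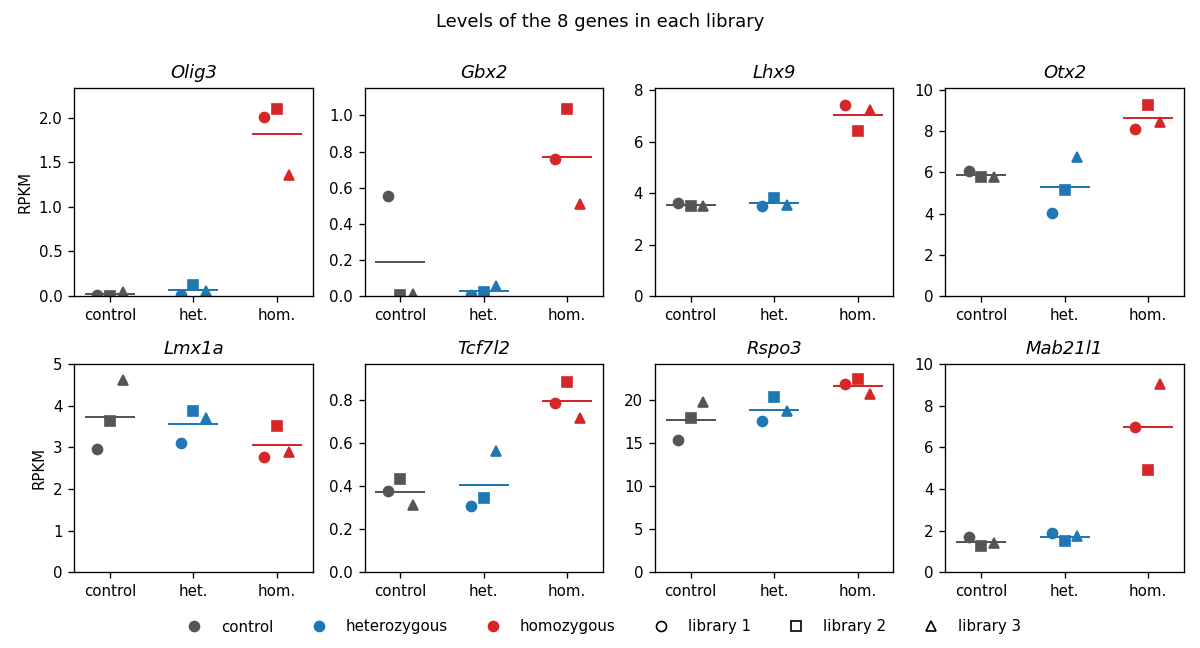
RPKM (linear axis from 0, a scale for each gene) of the 8 genes in the 9 libraries, with points for libraries and lines for genotype means. Homozygous points lie above the 6 others for Olig3, Lhx9, Otx2, Tcf7l2, Rspo3 and Mab21l1, while for Gbx2 they overlap with control library 1 and for Lmx1a the 3 genotypes overlap.

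In 6 of the 8 genes all homozygous libraries lay above all control libraries, which held for 17.5% of the 19153 genes above 0 in any library. In the same 6 genes they lay above all heterozygous libraries as well, which held for 13.3% of genes. Of the 7 genes in the fit, 6 were called higher in homozygous than in control cortex at an adjusted p under 0.05 (limma, Benjamini-Hochberg), as were 14.4% of 12159 genes, and 0 were called lower, against 19.9% of genes. In homozygous against heterozygous cortex 5 of the 7 were called higher and 0 lower, against 14.6% and 18.3% of genes. Rspo3 and Lmx1a were not called there. The 8 genes were chosen for such values, so the counts describe the choice. The split over all genes depends on scaling: with quantile normalization 2568 were called higher and 2167 lower in homozygous against control cortex, beside 1747 and 2423 without it. Olig3 and Tcf7l2 have control means under 0.5 RPKM and entered the fit only through their homozygous level.

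The heterozygous libraries give the comparison least bound to the choice of the genes, although they share the controls. Heterozygous libraries overlapped with control libraries in 8 of 8 genes. The share of all genes with such an overlap was not counted, so this only describes the 8. None of the 7 genes in the fit passed (limma adjusted p of 0.978 to 0.997, and 0 of 7 at an unadjusted p under 0.05), and over all genes the share called was 0% higher and 0% lower, with 699 of 12159 genes at an unadjusted p under 0.05. The log2 difference of heterozygous from control was 0.12 for Olig3, with a 95% interval of -0.16 to 0.39, and 0.17 for Mab21l1, with an interval of -0.21 to 0.55. It was 0.03 for Lhx9, with an interval of -0.13 to 0.19. Lhx9 had the narrowest interval of the 7. For Tcf7l2 it was 0.04 (-0.20 to 0.29), for Otx2 -0.16 (-0.45 to 0.14), for Rspo3 0.09 (-0.10 to 0.29) and for Lmx1a -0.05 (-0.35 to 0.26). The value for Olig3 is kept small by the added 0.5, because both groups were far under 0.5 RPKM. With 0.1 in place of 0.5 it was 0.43 (limma adjusted p = 0.944). The ratio of heterozygous to control means of Olig3 was 3.48, on few reads. The intervals of Olig3, Mab21l1, Lhx9, Tcf7l2 and Otx2 leave out the differences seen in homozygous cortex, that of Rspo3 ends just under its difference, and that of Lmx1a holds its difference of -0.24. The homozygous differences are the values the genes were chosen on, and they rest on the same controls. This placing is therefore a description and not a test of homozygous against heterozygous cortex. Two-sided exact permutation tests of the RPKM values gave p of 0.2 for Olig3 and Mab21l1 and 0.5 to 0.9 for the others, Gbx2 included at 0.9, where 0.1 is the smallest that 3 against 3 libraries allow.

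**Figure D3:**
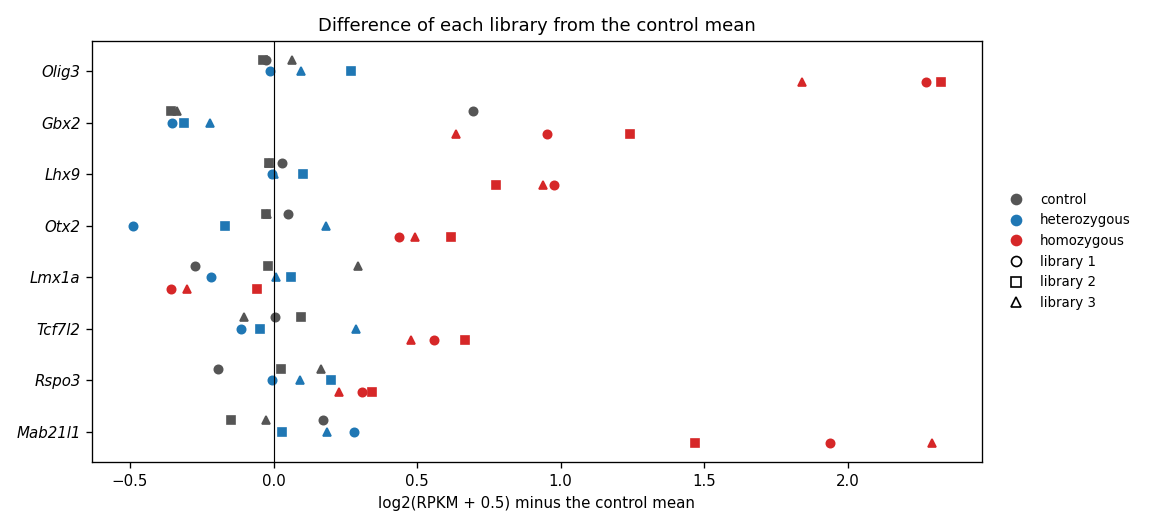
Difference of each library from the control mean, on the log2(RPKM + 0.5) scale, for the 8 genes, with 1 point per library. Heterozygous and control points overlap for all 8 genes, and homozygous points lie farthest to the right for Olig3 and Mab21l1, with mean differences of 2.15 and 1.90.

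The order of the 8 genes by level changed between genotypes. In control cortex Rspo3 was highest at 17.7 RPKM, followed by Otx2 at 5.87, Lmx1a at 3.74, Lhx9 at 3.53, Mab21l1 at 1.46, Tcf7l2 at 0.375, Gbx2 at 0.191 and Olig3 at 0.0184 RPKM (means, n = 3). Lmx1a and Lhx9 overlapped, and Gbx2 overlapped with both its neighbours. In homozygous cortex the means were 21.7 RPKM for Rspo3, 8.63 for Otx2, 7.02 for Lhx9, 6.98 for Mab21l1, 3.06 for Lmx1a, 1.82 for Olig3, 0.796 for Tcf7l2 and 0.767 for Gbx2. There Mab21l1 overlapped with Lhx9 and Otx2, and Tcf7l2 with Gbx2. The place of Olig3 under Gbx2 in control cortex rests on control library 1. Without that library Gbx2 had the lowest control mean, at 0.0103 RPKM beside 0.0234 RPKM for Olig3. In every homozygous library Olig3 was above Tcf7l2 and Gbx2.

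The start regions of the genes were compared because 6 of them were high together. RefSeq (GRCm38.p6, not the build of the authors' mapping) gave a start for 6 of the 8 genes, and Rspo3 and Mab21l1 had no entry. The 250 bases before each start were searched on both strands for CTTTGAT (Tcf and Lef), TAATCC (Otx), TAATTA (LIM homeodomain and Gbx) and CATATG (Olig), which are in 3.21%, 6.25%, 4.84% and 3.46% of 32851 such windows. Olig3 and Gbx2 are shown because they are nearest to absent in most control and heterozygous libraries, and 1 of 4 Otx2 windows because it holds most of the matches. Capitals mark matches. The windows are chr10:19356289-19356538 (plus strand) for Olig3, chr1:89931177-89931426 (minus strand) for Gbx2 and chr14:48665110-48665359 (minus strand) for Otx2, each printed 5′ to 3′ up to the base before the start.
Olig3: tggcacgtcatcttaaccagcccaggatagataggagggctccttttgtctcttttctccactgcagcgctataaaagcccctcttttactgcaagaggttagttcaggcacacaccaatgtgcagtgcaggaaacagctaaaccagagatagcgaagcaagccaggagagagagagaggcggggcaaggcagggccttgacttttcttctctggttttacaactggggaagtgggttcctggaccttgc
Gbx2: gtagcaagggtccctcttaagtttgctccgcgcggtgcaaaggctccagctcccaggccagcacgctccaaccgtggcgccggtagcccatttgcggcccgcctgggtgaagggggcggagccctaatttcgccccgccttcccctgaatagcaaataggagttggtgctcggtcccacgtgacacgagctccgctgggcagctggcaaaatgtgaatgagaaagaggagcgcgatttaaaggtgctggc
Otx2: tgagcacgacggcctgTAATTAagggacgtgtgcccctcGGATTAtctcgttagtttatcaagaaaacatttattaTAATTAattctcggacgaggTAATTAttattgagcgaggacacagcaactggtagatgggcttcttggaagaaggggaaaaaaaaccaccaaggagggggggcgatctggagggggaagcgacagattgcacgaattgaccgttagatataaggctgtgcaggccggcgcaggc
None of the 4 motifs was in the Olig3 or Gbx2 window. The Otx2 window held TAATTA 234, 174 and 154 bases before the start and the Otx motif, read on the other strand as GGATTA, 211 bases before it. Of the windows not shown, one of Tcf7l2 held the Otx motif 66 bases before the start, and another of Otx2 held TAATTA 141 bases before it. The remaining windows, with those of Lhx9 and Lmx1a, held none of the 4 motifs. A match of letters is a description only.

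Other genes of the thalamus, habenula and pretectum were then read from a list of 27 names, 4 of them among the 8 genes. Of the 23 others, 14 had all homozygous libraries above the 6 others, against 13.3% of all genes, and 15 had them above all controls, against 17.5%. Only 5 of the 23 reached the fit. Of these, 2 rose in homozygous against control cortex and 0 fell, beside 14.4% and 19.9% of all genes in the fit. Barhl2, a homeobox gene of diencephalon and of Cajal-Retzius cells, rose from a control mean of 1.04 ± 0.0938 to a homozygous mean of 2.77 ± 0.165 RPKM (SD, n = 3, log2 change 1.09 ± 0.09 SE, limma adjusted p = 3.70e-06). Prox1, a homeobox gene of thalamus and other young neurons, rose from a control mean of 0.563 ± 0.0817 to a homozygous mean of 1.25 ± 0.287 RPKM (log2 change 0.71 ± 0.12 SE, limma adjusted p = 6.94e-04). With no filter on low levels, 13 of the 23 rose, beside 2008 of all 19153 genes. The median log2 difference of the 5 was 0.20, beside -0.01 over all genes in the fit.

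The genes under the filter, named here after their values were seen, were low in control and heterozygous cortex. Shox2, a homeobox gene of thalamus, was at 0.0391, 0.0427 and 0.0109 RPKM in the controls, 0.0391, 0.0619 and 0.0132 RPKM in the heterozygotes and 1.27, 1.404 and 0.996 RPKM in the homozygotes. Wnt3, a ligand of the thalamus, was at 0.122, 0.122 and 0.186 RPKM in the controls, 0.116, 0.0914 and 0.123 RPKM in the heterozygotes and 1.19, 0.887 and 0.821 RPKM in the homozygotes. For both, the lowest homozygous library was above the 6 others. Gata2, Gata3, Tal2, Pax3 and Pax7, also under the filter, overlapped with the controls, with Gata3 at means of 0.0175 RPKM in the controls and 0.0131 RPKM in the homozygotes. Sox14, a factor of a small thalamic and pretectal neuron group, had about 0 or 1 read in each control and heterozygous library and about 62, 46 and 96 reads in the homozygous ones. Nkx2-2 and Barhl1 were listed at 0 in all 6 control and heterozygous libraries and were above 0 in the homozygous ones. There Nkx2-2 had about 19, 5 and 24 reads and Barhl1 about 3, 1 and 12 reads, so both rest on few reads. Dbx1, a progenitor gene, was at 0.0572 to 0.0655 RPKM in the controls, 0.0299 to 0.106 RPKM in the heterozygotes and 0.253 to 0.420 RPKM in the homozygotes. Slc17a6, a vesicular glutamate transporter of thalamic and many other neurons and the most abundant gene of the list, was at 12.3 ± 0.776 RPKM in the controls and 11.01 ± 0.674 RPKM in the homozygotes (SD, n = 3), and did not pass (limma adjusted p = 0.141). The summed level of the other 22 genes was 4.52 to 5.44 RPKM in control, 3.92 to 4.48 RPKM in heterozygous and 11.3 to 11.6 RPKM in homozygous libraries. The other 9 of the 23 genes, Gata2, Gata3, Helt, Tal1, Tal2, Pax3, Pax7, Rora and Slc17a6, did not have all homozygous libraries above the 6 others. Whether more cells or more RNA per cell carried these transcripts cannot be told apart in bulk tissue. The part of diencephalic cells in the levels of the 8 genes was not tested.

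**Figure D4:**
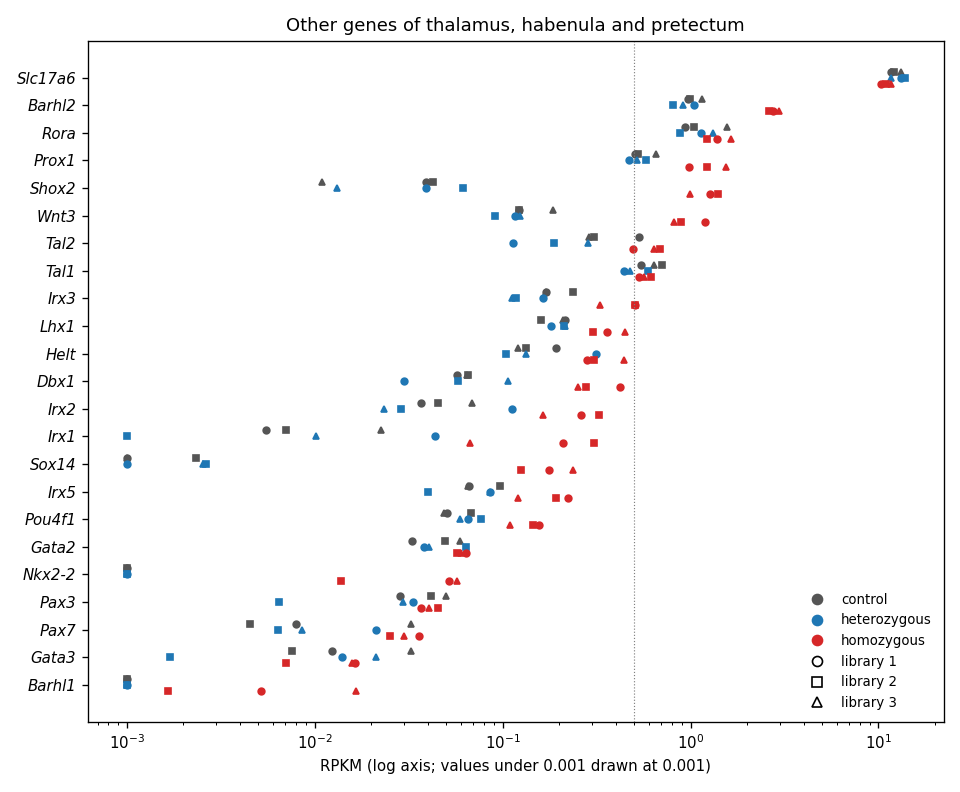
RPKM (log axis, values under 0.001 drawn at 0.001) of the 23 other genes of the thalamus, habenula and pretectum list, with 1 point per library and a dotted line at 0.5 RPKM. For 14 genes the 3 homozygous points lie to the right of the 6 others.

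Genes of the cortical hem and roof plate, where Lmx1a and Rspo3 belong, did not move as a group. Of 22 other genes 16 were in the fit, and 0 rose and 0 fell in homozygous against control cortex (limma, with a median log2 difference of 0.06). Over all genes in the fit 14.4% rose and 19.9% fell. The R-spondins Rspo1 and Rspo2 were at 4.71 ± 0.795 and 4.34 ± 0.886 RPKM in the controls and 4.06 ± 0.653 and 3.88 ± 0.111 RPKM in the homozygotes (SD, n = 3). The hem ligand Wnt3a was at 1.37 ± 0.244 RPKM in the controls and 1.12 ± 0.176 RPKM in the homozygotes. These values overlap, as those of Lmx1a do. The summed level of the list was 45.3 to 52.5 RPKM in control, 38.1 to 49.8 RPKM in heterozygous and 50.3 to 51.3 RPKM in homozygous libraries.

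In the Wnt and R-spondin pathway around Rspo3 and Tcf7l2, 3 of 16 other genes in the fit rose and 2 fell, of 23 listed, with a median log2 difference of 0.00. The shares over all genes in the fit were 14.4% higher and 19.9% lower in homozygous against control cortex. Nkd1, an inhibitor induced by Wnt, fell from a control mean of 3.77 ± 0.989 to a homozygous mean of 2.09 ± 0.230 RPKM (SD, n = 3, limma adjusted p = 0.00359), and Lrp5, a Wnt co-receptor, fell by 0.34 on the log2 scale (limma adjusted p = 0.0162). Sp5, a Wnt target, rose by 0.48 on the log2 scale (limma adjusted p = 0.00441), and Ctnnb1, the beta-catenin gene, rose by 0.17 (limma adjusted p = 0.0241). Axin2, a widely used Wnt target, was at 7.06 ± 0.893 RPKM in the controls and 7.58 ± 0.987 RPKM in the homozygotes (SD, n = 3) and did not pass (limma adjusted p = 0.538). In 5 of the 23 genes all homozygous libraries lay above the 6 others, against 13.3% of all genes. Notum, under the filter, was among them, at 0.133 ± 0.0178 RPKM in the controls and 0.845 ± 0.151 RPKM in the homozygotes (SD, n = 3). Without control library 2, and also without homozygous library 1, 1 of the 16 rose, and without control library 3, and also without homozygous library 3, 1 fell. Of the receptors, Lgr4 was at 2.15 ± 0.409 RPKM in the controls and 2.30 ± 0.156 RPKM in the homozygotes, while Lgr5 and Lgr6 stayed under 0.1 RPKM in every library.

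Among 17 relatives of the 8 genes, 9 were in the fit. Of these, 2 rose and 1 fell in homozygous against control cortex, beside 14.4% and 19.9% of all genes in the fit. Lhx5, a LIM homeodomain relative known from Cajal-Retzius cells and diencephalon, rose from a control mean of 1.26 ± 0.215 to a homozygous mean of 3.45 ± 0.471 RPKM (SD, n = 3, limma adjusted p = 1.85e-05). Lef1, the relative of Tcf7l2, rose from a control mean of 1.19 ± 0.281 to a homozygous mean of 1.67 ± 0.10 RPKM (limma adjusted p = 0.0260). Lhx2, the closest relative of Lhx9 and a cortical selector gene, fell from a control mean of 49.7 ± 5.10 to a homozygous mean of 30.9 ± 1.66 RPKM (limma adjusted p = 4.28e-05). Lhx9 and Lhx2 thus lay on opposite sides of control. Without control library 1, control library 2, homozygous library 1 or homozygous library 3, each left out alone, 1 relative rose in place of 2, and without control library 3, 2 fell. Mab21l2, which was under the filter and lies within Lrba, was at 0.0754, 0.0701 and 0.0881 RPKM in the controls and 0.972, 0.688 and 1.48 RPKM in the homozygotes. Mab21l3, the other relative of Mab21l1, was at 0.680 ± 0.0905 and 0.756 ± 0.0911 RPKM (SD, n = 3) and did not pass (limma adjusted p = 0.459). Otx1, the relative of Otx2, was at 0.865 ± 0.0789 RPKM in the controls and 0.979 ± 0.0138 RPKM in the homozygotes (SD, n = 3) and did not pass (limma adjusted p = 0.2504). Olig2, a relative of Olig3, was at 0.800 ± 0.398 and 0.516 ± 0.0983 RPKM (SD, n = 3) and did not pass either (limma adjusted p = 0.206). Olig1, Tcf7, Gbx1, Lmx1b, Crx, Rspo4 and Lhx1 were under the filter, and Tcf7l1 did not pass. Tcf7 was at 0.234 to 0.363 RPKM in control and 0.418 to 0.569 RPKM in homozygous libraries. Lhx1 was at 0.161 to 0.214 RPKM in control and 0.303 to 0.449 RPKM in homozygous libraries. Both were among 6 of the 17 relatives with all homozygous libraries above the 6 others, against 13.3% of all genes.

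Lists for other regions differed from one another. The counts below stand beside 14.4% of all genes in the fit that rose and 19.9% that fell in homozygous against control cortex. The cortical pallium list, which checks the labelled tissue, was present in full, with 24 of 24 genes in the fit. Of these 10 fell and 4 rose in homozygous cortex, with Neurog2, a proneural factor of cortical progenitors, at 62.4 ± 4.43 RPKM in the controls and 24.5 ± 3.71 RPKM in the homozygotes (SD, n = 3; limma adjusted p = 3.62e-06). Sox5, a factor of deep-layer neurons, fell by 1.23 on the log2 scale (limma adjusted p = 4.00e-05), and Lhx2 fell as given above. The 4 that rose were Dmrt3, Dmrta1, Neurod1 and Tbr1, by 0.53, 0.53, 0.50 and 0.31 on the log2 scale (limma adjusted p of 9.78e-04 to 0.0376). Pax6 and Emx2, with log2 differences of 0.03 and -0.07, were among those that did not pass. The summed level of the pallium list was 433 to 551 RPKM in control, 490 to 523 RPKM in heterozygous and 340 to 371 RPKM in homozygous libraries. Of 25 genes of midbrain, hindbrain and spinal cord 21 stayed under 0.1 RPKM in every library, among them En1, Pax2 and the Hox genes listed, and 1 was in the fit. Of 21 genes of hypothalamus and ventral midline 5 were in the fit, 1 rose and 0 fell. That gene, Fezf1, a zinc finger factor, was at 0.201 ± 0.00637 RPKM in the controls, 0.313 ± 0.228 RPKM in the heterozygotes and 1.399 ± 0.368 RPKM in the homozygotes (SD, n = 3). It reached the fit only through its homozygous level, so its call carries no weight. Of the subpallium list 3 of 13 rose, Zfp503, Gad1 and Ebf1, and 0 fell. Zfp503 too reached the fit only through its homozygous level, with means of 0.331, 0.367 and 0.820 RPKM in the controls, heterozygotes and homozygotes. Of the Cajal-Retzius list 8 of 13 rose and 0 fell, with Barhl2, Nhlh2, Ebf2 and Lhx5 having the smallest adjusted p, and Barhl2 and Lhx1 also stand in the thalamus list. Reln, the signal that defines these cells, was at 16.8 RPKM in the controls and 14.9 RPKM in the homozygotes (means, n = 3) and did not pass (limma adjusted p = 0.148). Trp73, Ndnf and Cacna2d2 also had lower homozygous means, with log2 differences of -0.05, -0.15 and -0.21, and did not pass.

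Tissues that border the cortex were checked in the same way. None of 8 choroid plexus genes in the fit changed, of 11 listed besides Otx2, and their summed level was 400 to 631 RPKM in control and 400 to 490 RPKM in homozygous libraries. Ttr, the main choroid plexus gene, was at 453 ± 117 RPKM in the controls and 427 ± 47.2 RPKM in the homozygotes (SD, n = 3). Without Ttr, which makes up most of the sum, it was 29.0 to 44.5 RPKM in control and 27.4 to 37.0 RPKM in homozygous libraries. The part of choroid plexus in the Otx2 level was not tested. Of 15 meningeal genes in the fit 1 rose, Crabp2, and the summed level of the list without Crabp2 was 135 to 199 RPKM in control and 150 to 191 RPKM in homozygous libraries. Of the eye and pigment epithelium list 2 of 12 genes were in the fit, 0 rose and 1 fell: Dct, a pigment enzyme gene that is also active in the telencephalon, fell from a control mean of 17.0 ± 2.39 to a homozygous mean of 4.49 ± 0.407 RPKM (limma adjusted p = 3.75e-07). No gene of any of these 12 lists changed in heterozygous against control cortex (limma adjusted p).

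**Figure D5:**
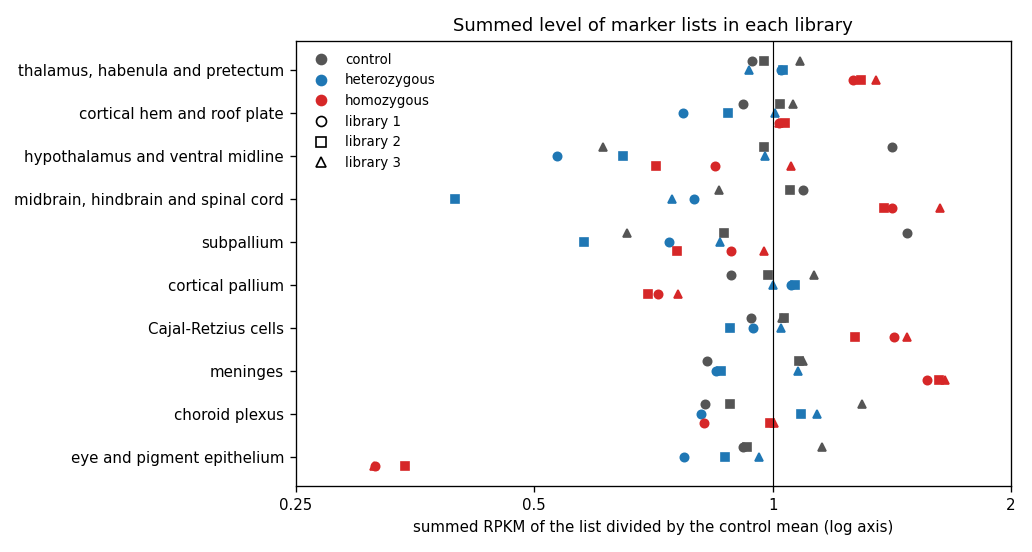
Summed RPKM of 10 marker lists in each library, divided by the control mean (log axis), without the 8 genes. Homozygous libraries lie to the right of all others for thalamus, midbrain and hindbrain (0 genes called), Cajal-Retzius cells and meninges (through Crabp2). They lie to the left for cortical pallium and for eye and pigment epithelium (through Dct). For midbrain and hindbrain, homozygous sums start at 5.41 RPKM against at most 4.27 elsewhere. Fgf17 is the most abundant gene there, and without it they start at 1.49 against at most 0.879 RPKM. Mab21l2 has a mean of 0.0779 (control) and 1.05 RPKM (homozygous), and Fgf17 of 3.20 and 3.82 RPKM.

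The genes most like the 8 in pattern were found by Pearson correlation with the mean of their standardised log2 values. Over the 9 libraries they were Kdm7a (r = 0.992), Hspa4l (0.990), Wdr19 (0.989), Ankrd28 (0.987), B9d2 (0.986) and Fzd7 (0.985). Fzd7, a Wnt receptor, was at means of 3.61 RPKM in the controls, 3.39 RPKM in the heterozygotes and 6.36 RPKM in the homozygotes. After the genotype means were taken off, the most alike were N4bp2l2 (r = 0.986), Elp4 (0.980), Pdia4 (0.974), Tor1aip2 (0.972), Tnpo1 (0.964) and Timm21 (0.964), over the same 9 libraries. The 2 sets share no gene. In homozygous against control cortex N4bp2l2 and Tor1aip2 of the second set rose, Elp4 and Timm21 fell, and Pdia4 and Tnpo1 did not pass (limma adjusted p). Both sets hold the highest r among all other genes in the fit, so a high r alone carries no weight.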

How the data were processed

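RNA-seq of 9 embryonic mouse cortices was used, 3 per genotype. Software named in the submitters' processing notes is CASAVA 1.8.2 and TopHat 1.4.1, and the build is mm9. How expression values were computed, from which annotation, and whether strand was used is not stated there. The authors deposited 1 RPKM per RefSeq transcript, with 30978 transcripts in each library, per the file headers. No read counts come with these values. Depth was estimated from the steps between values worth under 5 reads, of which 68.3% to 72.0% lay within 0.1 of a whole read, using exonic lengths from GENCODE M21 (GRCm38). Read numbers are approximate, so edge cases near 0 reads are uncertain.

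RefSeq named 30507 transcripts and GENCODE M21 another 178, and 293 had no name. The transcript with the highest mean stood for its gene. limma 3.58.1 (R 4.3.3) was fitted by genotype over all 9 libraries on log2(RPKM + 0.5), with a mean-dependent prior variance, for 12159 genes whose mean reached 0.5 RPKM. Calls had a Benjamini-Hochberg adjusted p under 0.05. This scale understates changes of low genes. The fit and the depth estimate were tested on simulated data.

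The 8 genes, the lists and the naming rule were chosen with earlier results of these data known, and no list was tested as a set. The rule names up to 4 called genes per list with the smallest adjusted p, all relatives of the 8 genes, and the 6 genes most alike by each of 2 correlations. Genes named beyond it were chosen after their values were seen. One gene that the rule names is not reported here. Alternatives were other pseudocounts, filters, transcripts, normalization, fewer samples in the fit, a replicate block, a sex term and leaving out each library.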

Additional observations from a re-analysis of the deposited data

How the results depend on the processing

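The homozygous against control difference kept its sign for the 8 genes under each alternative that gave a value. Its size was 4.01 for Olig3, 0.92 for Tcf7l2 and 2.08 for Gbx2 with a pseudocount of 0.1, and 1.46 for Olig3, 0.82 for Lhx9 and 0.39 for Tcf7l2 with a pseudocount of 1. With the mean over all transcripts it was 0.81 for Lhx9. For heterozygous against control, a pseudocount of 0.1 gave 0.43 for Olig3 and quantile normalization gave -0.046. Leaving out 1 library gave -0.0024 to 0.051 for Lhx9, -0.080 to 0.12 for Tcf7l2, -0.33 to 0.0064 for Otx2, -0.0020 to 0.18 for Rspo3, -0.47 to 0.052 for Gbx2 and -0.19 to 0.098 for Lmx1a. The heterozygous libraries are all male, and with a sex term the difference was -0.25 for Lmx1a, beside -0.05, and 0.02 for Rspo3, beside 0.09, and neither passed. The count of all genes called there was 1 with only the 2 groups compared and 0 to 1 with 1 library left out.

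In homozygous against control cortex, with no filter, 13 thalamus genes, 4 hypothalamus genes, 1 midbrain and hindbrain gene and 3 eye genes rose and 2 eye genes fell. Of all 19153 genes 2008 rose and 2456 fell with that setting. With a mean of at least 2 RPKM, 0 thalamus, 0 hypothalamus, 0 subpallium and 0 family genes, 2 Cajal-Retzius genes and 1 Wnt gene rose. With quantile normalization 2 hem genes rose, with a pseudocount of 1 there was 1 subpallium gene that fell, and with a sex term 1 family gene rose. Leaving out 1 library gave 0 to 1 hem genes that rose and 0 to 2 that fell, and 0 to 1 hypothalamus, 0 to 3 subpallium, 0 to 1 Cajal-Retzius and 0 to 1 choroid plexus genes that fell. It gave 1 to 3 Wnt and 1 to 2 family genes that rose, and 1 to 2 of each that fell. Causes were not tested.

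The labels do not say whether replicate numbers pair the libraries. Over 9 same-number pairs r was -0.044 to 0.40. It was over 0.1 in 2 pairs, homozygous with control for numbers 1 (0.40) and 3 (0.32), so a pairing is not settled. With the replicate block 4429 genes changed in homozygous against control cortex, beside 4170, with 2 hem and 2 meninges genes that rose and 1 hem and 1 subpallium gene that fell.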
